A study of Mus musculus with 4 samples.

Results

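The genes described here are 9 axon and vessel guidance genes, of 32285 genes in the count tables: the secreted ligands Slit2, Slit3, Ntn1 and Sema3g and the receptors Robo1, Robo2, Robo4, Unc5b and Plxnd1. They were selected by symbol with their levels in these libraries already known, so each level below describes the nuclei that were counted and carries no test. Nuclei were isolated from the floating, adipocyte-rich layer of digested tissue of naïve wild-type C57BL/6 mice fed standard chow. The thymic RNA library came from 6 pooled thymi of males aged 4 months, trimmed of the fat around the capsule, and the epigonadal RNA library from the epigonadal fat of males aged 4 months. A chromatin accessibility (ATAC) library came from 16 pooled thymi of females aged 6 months. Each tissue and assay is 1 library, so intervals (95%, exact) cover counting error only, and tissue, library, digestion and nucleus yield cannot be told apart.

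Slit proteins are secreted, bind Robo receptors and repel growing axons and migrating cells. Robo4 is the family member of endothelial cells and is known for restraining vessel leak. Netrin-1 (Ntn1) binds DCC and Unc5 receptors, of which Unc5b is the vascular one. Sema3g belongs to the class 3 semaphorins, which act through neuropilins and plexins, and Plxnd1 is the plexin of endothelium. In fat and thymus these genes are mostly known from the vessels and the stroma, where they shape how capillaries and nerves are laid down.

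The authors placed 365 thymic and 1564 epigonadal barcodes in 5 adipocyte classes and left 22235 and 3479 without one. Ad Ia with Ad Ib make up Ad I, joined here where counts were low, and the other classes are Ad IIa, Ad IIb and also Ad IIc. The labels were checked against 11 adipocyte and 12 endothelial marker genes fixed as lists. Thymic Ad Ia held 8352 CPM (UMIs per 1000000 nuclear-encoded UMIs) of adipocyte markers and 72.3 CPM of endothelial markers, and thymic Ad Ib held 3743 and 2563 CPM. Thymic Ad IIa held 2785 CPM of adipocyte markers, of which Pparg made up 2371 CPM, with 9.96 CPM of Adipoq, 144 CPM of Cfd and 152 CPM of Lipe, and 10041 CPM of endothelial markers. Epigonadal Ad IIa held 7856 CPM of adipocyte and 7687 CPM of endothelial markers. The data therefore go against a plain adipocyte reading of Ad IIa, above all in the thymic library, and these nuclei are called by their label. Median mitochondrial RNA was 13.3% to 18.2% of UMIs in the 5 thymic labels and 2.84% to 6.05% in the epigonadal ones. The RNA libraries shared 147 barcode sequences.

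Promoters are shown for 4 genes, because the RNA and the chromatin can both be read against them: Robo4 and Robo2, the receptors called higher in Ad IIa than in Ad I in both libraries, Unc5b, the member with the most fragments over its start, and Slit2, with an accessible start and almost no RNA in labelled nuclei. The windows run from 250 bases before to 50 bases after the RefSeq start (GRCm38.p6), 5′ to 3′ on the gene's strand. They are Robo4 at chr9:37401722-37402021 (plus strand), Robo2 at chr16:75447244-75447543 (minus strand, the farthest upstream of its 3 listed starts), Unc5b at chr10:60831532-60831831 (minus strand) and Slit2 at chr5:47982905-47983204 (plus strand). Capitals mark matches, on either strand, to 6 motifs: the ETS factor motif CCGGAAG, the SP1 motif GGGCGG, the RBPJ motif TGGGAA, the E-box motif CACGTG, the GATA factor motif AGATAA and the TATA box motif TATAAA. No matches overlapped.
Robo4: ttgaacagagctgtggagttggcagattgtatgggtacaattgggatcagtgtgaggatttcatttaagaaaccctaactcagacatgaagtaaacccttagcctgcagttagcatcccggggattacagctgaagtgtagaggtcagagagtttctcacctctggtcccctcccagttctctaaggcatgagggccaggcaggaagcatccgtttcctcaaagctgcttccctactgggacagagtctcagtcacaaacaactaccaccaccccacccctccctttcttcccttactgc
Robo2: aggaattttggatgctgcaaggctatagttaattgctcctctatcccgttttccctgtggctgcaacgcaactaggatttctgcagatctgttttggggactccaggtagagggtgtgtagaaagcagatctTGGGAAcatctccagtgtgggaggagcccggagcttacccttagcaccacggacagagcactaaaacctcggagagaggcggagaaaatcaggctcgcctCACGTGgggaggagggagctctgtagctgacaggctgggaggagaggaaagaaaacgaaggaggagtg
Unc5b: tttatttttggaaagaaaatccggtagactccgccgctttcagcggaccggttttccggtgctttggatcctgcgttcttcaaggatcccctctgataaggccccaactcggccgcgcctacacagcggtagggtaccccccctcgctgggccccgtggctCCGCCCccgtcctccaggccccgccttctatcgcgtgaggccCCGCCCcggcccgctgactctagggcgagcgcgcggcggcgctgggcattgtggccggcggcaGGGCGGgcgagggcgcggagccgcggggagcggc
Slit2: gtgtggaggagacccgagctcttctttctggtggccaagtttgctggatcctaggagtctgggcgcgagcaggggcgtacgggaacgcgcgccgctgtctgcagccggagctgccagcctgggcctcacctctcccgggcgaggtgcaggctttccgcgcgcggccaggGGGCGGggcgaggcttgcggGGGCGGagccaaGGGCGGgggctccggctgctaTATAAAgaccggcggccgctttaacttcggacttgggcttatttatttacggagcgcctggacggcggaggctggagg

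The Unc5b and Slit2 windows each held 3 SP1 matches, and Slit2 also held a TATAAA 28 bases before its start (position -28). The Robo2 window held 1 RBPJ and 1 E-box match, and the Robo4 window held none of the 6. Over all 32851 promoter windows of this length, the share with at least 1 match was 8.86% for ETS, 35.7% for SP1, 25.6% for RBPJ, 7.15% for the E-box, 11.2% for GATA and 13.6% for TATAAA. Base composition separated the same windows: Unc5b was 69.7% and Slit2 68.0% G or C, with 36 and 30 CpG pairs, against 50.3% and 2 CpG pairs in Robo4 and 53.3% and 9 CpG pairs in Robo2. The median of all windows was 52.7% and 7 CpG pairs. A match or its absence describes these letters only.

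Slit3 was the most abundant ligand RNA in labelled nuclei and was spread over several cell populations. The gene (chromosome 11, 35121456 to 35708507) spans 587 kb. In the epigonadal library Ad Ia held 808 CPM and Ad Ib 790 CPM, while Ad IIa held 442 CPM (406 to 481), Ad IIb 419 CPM, and the Ad IIc level was 48.4 CPM. The thymic levels were 36.2 CPM (Ad Ia, 1 UMI), 203 CPM (Ad Ib, 5 UMIs), 281 CPM (Ad IIa, 232 to 338), 629 CPM (Ad IIb) and 55.3 CPM (Ad IIc, 3 UMIs). The neighbours Ad Ia and Ad Ib, and Ad IIa and Ad IIb, overlapped in their epigonadal intervals, while Ad IIc lay below all 4. The thymic Ad IIb value rested on 17 UMIs in 16 nuclei, and 1 nucleus gave 10 of them.

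Between tissues, Slit3 differed most in Ad I. Thymic Ad I held 6 Slit3 UMIs in 84 nuclei, or 115 CPM, and epigonadal Ad I held 211 in 258 nuclei, or 800 CPM (695 to 915). The log2 ratio, thymic over epigonadal, was -2.69 (-4.26 to -1.65), and 4.76% of thymic against 48.1% of epigonadal nuclei carried a UMI, or 2.38% and 27.9% after thinning each nucleus to 500 UMIs and leaving out shallower ones. The thymic share (1.31% to 11.7%, at a median of 500.5 UMIs) was not distinguishable from the 2.68% of 1906 thymic T cell marker barcodes with a Slit3 UMI (median 733 UMIs). Whether the thymic Ad I UMIs are background was not tested. A sum over nuclei does not tell fewer nuclei with the RNA from less RNA in each. A gene was called when the fold was at least 2, the interval excluded no difference, and both sides together held at least 10 UMIs. Slit3 was the 1 member called between the tissues in Ad I, of 2 that could be, where 3.65% of 5346 genes were called lower and 5.87% higher in the thymus.

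Fibroblast markers were at 172 CPM in thymic and 682 CPM in epigonadal Ad I (3 and 9 of 10 markers detected). Barcodes with fibroblast markers held the most Slit3 of any population. Leaving out every nucleus with a fibroblast marker UMI left 2 thymic UMIs in 77 nuclei against 96 epigonadal UMIs in 153 nuclei, and a log2 ratio of -3.72 (-7.10 to -2.14). T cell markers were at 727 CPM in thymic and 110 CPM in epigonadal Ad I, and leaving out nuclei with such a UMI gave -2.49 (-4.26 to -1.37). At the depth of Ad I a nucleus without a marker UMI can still hold RNA of that cell type, so these settings decide nothing about its source. Mitochondrial RNA differed too, at a median of 17.3% in thymic and 4.52% in epigonadal Ad I. The part of fibroblast, T cell and mitochondrial RNA in the result was not tested. In Ad IIa the Slit3 difference was smaller and stayed under 2-fold, at a log2 ratio of -0.65 (-0.96 to -0.36).

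**Figure D1:**
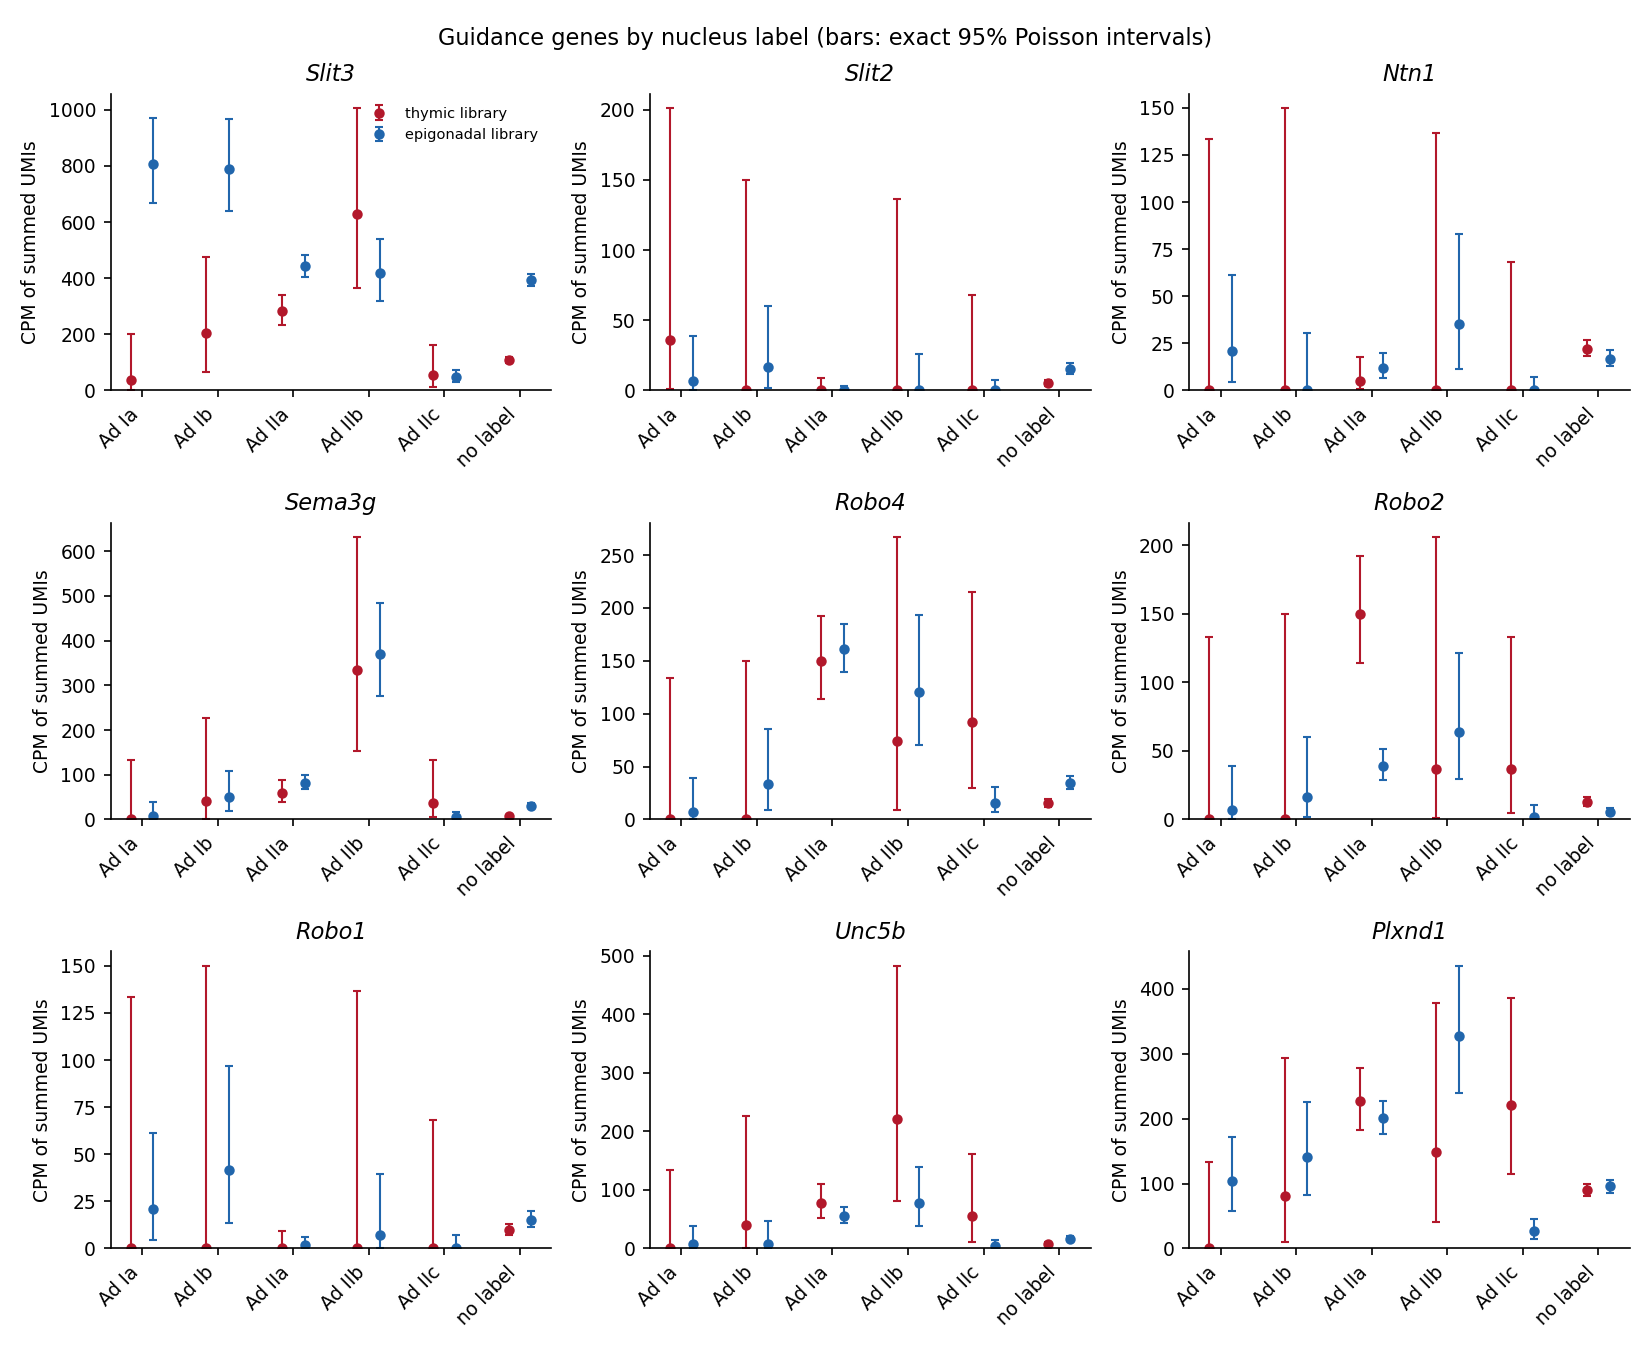
CPM of each gene (y axis, its own scale per panel) in the 5 labels and in barcodes with no label, in the thymic (red) and epigonadal (blue) library; bars are exact 95% Poisson intervals. Robo4 and Plxnd1 were near equal in Ad IIa of both libraries, and Unc5b stood at 77.2 against 55.8 CPM with overlapping intervals. Robo2 stood at 149 against 38.8 CPM there, and Sema3g was highest in Ad IIb.

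Sema3g, a secreted semaphorin known from arterial endothelium, set Ad IIb apart in both libraries. The gene lies on chromosome 14 (31217873 to 31230352). Its thymic level was 333 CPM in Ad IIb, 59.8 CPM in Ad IIa, 36.9 CPM in Ad IIc and 19.1 CPM in Ad I, and its epigonadal level was 369 CPM, 82.4 CPM, 5.81 CPM and 26.5 CPM in the same order. Of the thymic Ad IIb nuclei 8 of 16 and of the epigonadal ones 22 of 58 carried a UMI. The log2 ratio of Ad IIb over Ad IIa was 2.53 (1.19 to 3.63) for thymic nuclei, and epigonadal nuclei gave 2.17 (1.65 to 2.66). A list of 8 arterial markers was also highest there, at 1443 and 1052 CPM in Ad IIb against 623 and 377 CPM in Ad IIa. Between tissues Sema3g was within counting error in both labels. Over all labelled barcodes with endothelial markers it was at 75.4 CPM in the thymic library and 119 CPM in the epigonadal one, a log2 ratio of -0.65 (-1.24 to -0.12), below 2-fold.

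Slit2 and Ntn1 were close to the limit of these counts in labelled nuclei. Slit2 (chromosome 5, 47981291 to 48307735) gave 1 UMI in all thymic labels and 3 in all epigonadal labels, all 4 of them in Ad I. In Ad IIa 0 UMIs allow up to 7.47 CPM in the thymic and 2.42 CPM in the epigonadal library. Ntn1 (chromosome 11, 68209364 to 68386826), the netrin that Unc5b binds, gave 2 UMIs in thymic Ad IIa and none in the other thymic labels. In the epigonadal library Ntn1 gave 15 UMIs in Ad IIa (12.1 CPM), 5 in Ad IIb (35.5 CPM), 3 in Ad Ia and none in Ad Ib or Ad IIc. No tissue difference was detectable for Ntn1 in Ad IIa, with a log2 ratio of -1.01 (-4.46 to 0.82).

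In Ad IIa, Robo2 was the receptor called different between the tissues. The gene (chromosome 16, 73891976 to 75447443) spans 1555 kb. Thymic Ad IIa held 60 UMIs (149 CPM, 114 to 192) and epigonadal Ad IIa 48 UMIs (38.8 CPM, 28.6 to 51.4). The log2 ratio was 1.94 (1.37 to 2.52), and Robo2 was the 1 member called higher, of 7 with enough UMIs, where 3.0% of 9775 genes were called higher and 9.03% lower. These UMIs sat in few nuclei, 23 of 231 thymic (9.96%, 6.42% to 14.6%) and 18 of 590 epigonadal (3.05%, 1.82% to 4.78%), with up to 9 and 7 UMIs in 1 nucleus. UMIs of 1 nucleus are not independent, so the interval of the ratio is too narrow. The intervals of the shares did not overlap, but nuclei of 1 library are not replicates of a tissue. After thinning to 500 UMIs the shares were 6.11% and 1.19%. Of 1906 thymic T cell marker barcodes, at a median depth of 733 UMIs, 1 held a Robo2 UMI (0.0525%). In Ad IIb the levels were 37.0 CPM (1 UMI) and 63.9 CPM (9 UMIs), a log2 ratio of -0.28 (-6.24 to 2.06), which leaves the direction there undetermined.

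The Robo2 log2 ratio was 2.08 (1.41 to 2.80) in the 225 thymic and 386 epigonadal nuclei without a fibroblast marker UMI. In the 168 and 584 nuclei without a T cell marker UMI it was 2.13 (1.52 to 2.74). In the 230 and 571 nuclei with a barcode found in only 1 RNA library it was 1.90 (1.34 to 2.49). These sets are parts of the 231 and 590 Ad IIa nuclei and keep most of them. The part of fibroblast RNA, T cell RNA and shared barcodes was not tested. T cell markers were higher in thymic than epigonadal Ad IIa, at 194 against 6.47 CPM. Mitochondrial RNA also differed, at a median of 13.3% in thymic and 4.63% in epigonadal Ad IIa, and its part in the result was not tested. Labelled barcodes with at least 3 endothelial markers gave a Robo2 log2 ratio of 1.53 (0.97 to 2.10). They overlap Ad IIa and are not a separate population, with 62 and 49 Robo2 UMIs against 60 and 48 in Ad IIa. Among barcodes without a label, those with at least 3 endothelial markers held 33 Robo2 UMIs in the thymic library (103 CPM) and 6 in the epigonadal one (9.17 CPM), a log2 ratio of 3.40 (2.22 to 5.04). Median mitochondrial RNA in these unlabelled barcodes was 29.4% (thymic) and 4.93% (epigonadal), and its part was not tested.

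**Figure D2:**
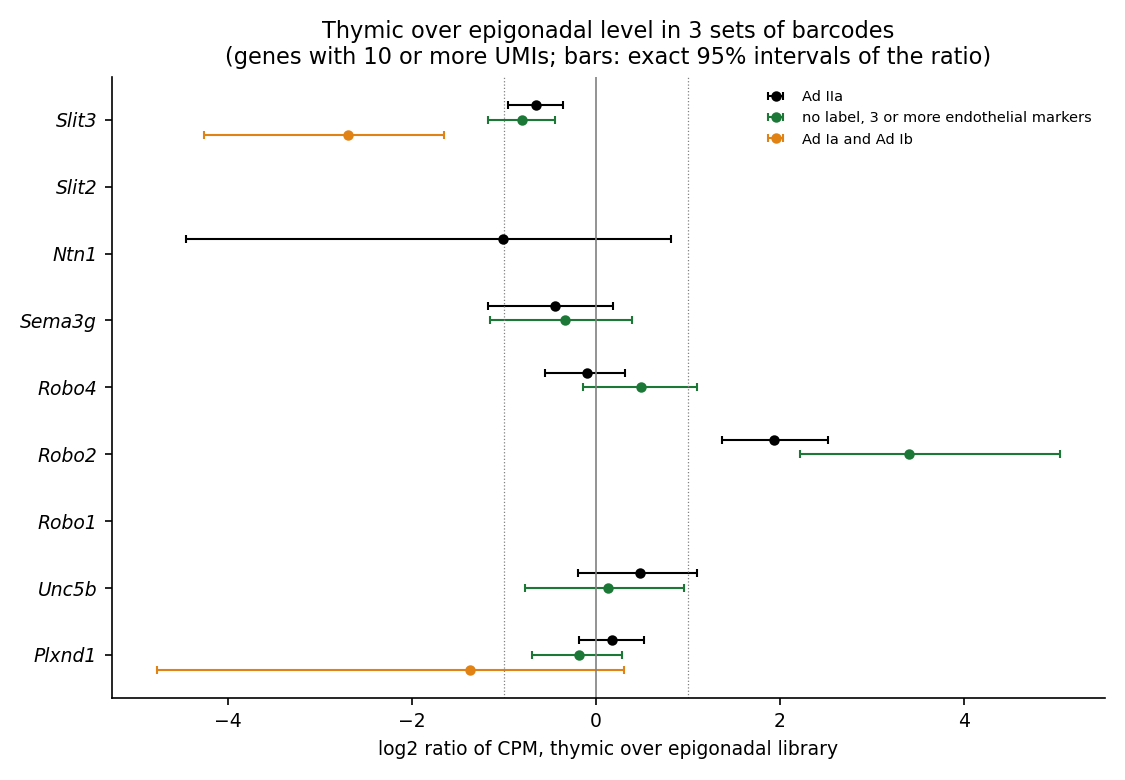
Log2 ratio of CPM, thymic over epigonadal (x axis), for each gene with at least 10 UMIs, in Ad IIa, in unlabelled barcodes with at least 3 endothelial markers, and in Ad I; bars are exact 95% intervals and dotted lines mark 2-fold. Robo2 lay above 2-fold in both endothelial-marker populations, Slit3 lay below 0 in all 3, and the other intervals included 0.

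Robo4, the endothelial Robo, was high in Ad IIa of both tissues at near equal levels. The gene (chromosome 9, 37401902 to 37414023) is short, at 12.1 kb. Its level in thymic Ad IIa was 149 CPM (114 to 192, 60 UMIs) and in epigonadal Ad IIa 161 CPM (139 to 185, 199 UMIs), a log2 ratio of -0.10 (-0.55 to 0.32). Thymic Ad Ia and Ad Ib held no Robo4 UMI, and epigonadal Ad Ia and Ad Ib held 1 and 4. A UMI was found in 22.5% of thymic and 26.1% of epigonadal Ad IIa nuclei, against 0.262% and 0.862% of barcodes with T cell markers, which should lack the gene. Median depth was 1696 and 1916 UMIs in Ad IIa and 733 and 1068 UMIs in those T cell marker barcodes.

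Unc5b, the vascular netrin receptor, and Plxnd1, the endothelial plexin, were also measured at higher levels in Ad IIa than in Ad I, where 3 of the 4 sums held 1 or 2 UMIs. Unc5b (chromosome 10, 60762594 to 60831581) was at 77.2 CPM (52.5 to 110) in thymic and 55.8 CPM (43.4 to 70.6) in epigonadal Ad IIa, and at 19.1 CPM (1 UMI) and 7.58 CPM (2 UMIs) in Ad I. The thymic log2 ratio of Ad IIa over Ad I was 1.45 (-0.57 to 7.36), not called. It was -0.36 with 5 UMIs added to each sum, a setting that lowers low-count ratios because Ad IIa is the deeper sum. Plxnd1 (chromosome 6, 115954811 to 115995339) was at 227 CPM (183 to 278) in thymic and 200 CPM (176 to 227) in epigonadal Ad IIa, and at 38.3 CPM (2 UMIs) and 121 CPM (32 UMIs) in Ad I. The epigonadal log2 ratio for Plxnd1 was 0.71 (0.19 to 1.30), below the fold used for a call. Neither differed between the tissues in Ad IIa beyond counting error, with log2 ratios of 0.48 (-0.19 to 1.10) for Unc5b and 0.18 (-0.19 to 0.53) for Plxnd1. In Ad IIc Plxnd1 and Robo4 were called higher in the thymic library, 2 of 3 members with enough UMIs, where 20.7% of 6481 genes were called higher and 11.9% lower. Plxnd1 was at 221 and 27.1 CPM there, a log2 ratio of 3.04 (1.78 to 4.25), and Robo4 at 92.1 CPM (5 UMIs) and 15.5 CPM (8 UMIs), a log2 ratio of 2.62 (0.61 to 4.37). Endothelial markers in Ad IIc were at 9067 and 488 CPM, and their part in these differences was not tested.

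Robo1 (chromosome 16, 72027518 to 73047491), the broadly expressed Robo, had the opposite distribution. No thymic label held a Robo1 UMI, which allows up to 7.47 CPM in Ad IIa and 57.4 CPM in Ad I. Epigonadal Ad I gave 8 UMIs (3 in Ad Ia), Ad IIa gave 2, Ad IIb 1, and none was found in Ad IIc. The epigonadal log2 ratio of Ad IIa over Ad I was -3.99 (-7.50 to -1.90). Fibroblast markers were at 223 CPM in epigonadal Ad IIa and 682 CPM in Ad I. Without nuclei holding a fibroblast marker UMI, 1 against 6 Robo1 UMIs were left, too few for a call.

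The members were also compared between Ad IIa and Ad I within each library. In the epigonadal library Robo4 (2.95, 1.84 to 4.72), Unc5b (2.57, 0.97 to 5.95), Robo2 (1.56, 0.14 to 4.10) and Sema3g (1.54, 0.54 to 2.99) were called higher on the log2 scale and Robo1 lower, of 8 members tested, where 12.4% of 10064 genes were called higher and 13.2% lower. In the thymic library Robo2 and Robo4, each with 60 UMIs against 0, were higher by a log2 of at least 1.38 against a floor of 3 UMIs (exact lower end 1.04), and Plxnd1 (2.25, 0.67 to 5.63) and Slit3 (1.18, 0.13 to 2.77) were called higher. These were 4 of 6 members tested, where 11.1% of 6095 genes were called higher and 10.3% lower. The label split and the choice of these genes both used these UMIs, and thymic Robo2 and Robo4 reached the minimum of UMIs through Ad IIa alone. The counts are therefore given beside the background and nothing is read from them. With 5 UMIs added to each sum in place of 0.5, none of the 4 thymic ratios reached 2-fold: Robo2 and Robo4 were at 0.76, Plxnd1 at 0.84 and Slit3 at 0.48. In the epigonadal library that setting gave 2.12 for Robo4, 1.17 for Unc5b and 0.50 for Robo2, and Sema3g fell under 2-fold. Ad IIa is the deeper sum (401448 against 52241 nuclear-encoded UMIs in the thymic library), so added UMIs lower low-count ratios by depth alone. Without nuclei holding a T cell marker UMI the thymic Slit3 ratio was 0.97 (-0.18 to 2.76) and no longer called. Without those holding a fibroblast marker UMI the epigonadal Robo2 ratio was 0.86 (-0.84 to 4.27) and the Sema3g ratio 0.71 (-0.39 to 2.31), likewise not called, and Robo1 was left with 1 against 6 UMIs, too few for a call. In that setting epigonadal Plxnd1, uncalled at 0.71 over all nuclei, was called at 1.63 (0.70 to 2.95), and without T cell marker nuclei at 1.16 (0.53 to 1.93). Thymic Slit3 was at 2.27 (0.70 to 5.65) without fibroblast marker nuclei.

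Joint detection within Ad IIa nuclei was counted for all pairs of members, and for most pairs the intervals of the 2 shares overlapped. The Robo2 counts were too few to place. Among 23 thymic nuclei with a Robo2 UMI 2 had a Robo4 UMI, 3 a Plxnd1 UMI and none an Unc5b or Sema3g UMI, against 50, 64, 25 and 21 of the 208 other nuclei. The intervals overlapped in each case, as for Robo4 (1.07% to 28.0% against 18.4% to 30.4%) and Unc5b (0% to 14.8% against 7.93% to 17.2%). Of 21 thymic nuclei with a Sema3g UMI, 9 (42.9%, 21.8% to 66.0%) also had Unc5b, against 16 of 210 others (7.62%, 4.42% to 12.1%). Epigonadal Unc5b was in 13 of 91 Sema3g nuclei (14.3%, 7.83% to 23.2%) and 51 of 499 others (10.2%, 7.70% to 13.2%). In epigonadal Ad IIa the intervals did not overlap for Plxnd1 in Robo4 nuclei, at 41.6% (33.7% to 49.8%) against 26.4% (22.3% to 30.8%) of the others. They did not overlap for Slit3 either, at 45.5% (37.4% to 53.7%) against 31.2% (26.9% to 35.8%) by Robo4, and at 48.4% (37.7% to 59.1%) against 32.5% (28.4% to 36.8%) by Sema3g. Those nuclei were also deeper, with a median of 2616 against 1677.5 UMIs by Robo4 and 2889 against 1770 by Sema3g, and the part of depth was not tested. Of 18 epigonadal Robo2 nuclei 6 had Sema3g (33.3%, 13.3% to 59.0%), against 85 of 572 others (14.9%), the opposite direction to the thymic counts. Robo4 was in 5 of those 18 and 149 of 572 others, Plxnd1 in 6 and 173, and Unc5b in 2 and 62. Thymic nuclei with and without Robo2 had median depths of 1690 and 1716 UMIs and endothelial marker sums of 10152 and 10028 CPM. These splits were chosen after their values were seen and have no test.

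The members also differed in how their UMIs were packed into nuclei. In Ad IIa each positive nucleus held on average 2.61 (thymic) and 2.67 (epigonadal) Robo2 UMIs and 2.46 and 2.66 Slit3 UMIs, with up to 19 of Slit3 in 1 epigonadal nucleus. Robo4, Unc5b, Plxnd1 and Sema3g held between 1.08 and 1.39 per positive nucleus in both libraries. Robo2 and Slit3 are also the longest of the 6 genes, with spans of 1555 and 587 kb against 12.1 to 69.0 kb. UMIs of 1 nucleus are not independent, so the Poisson and ratio intervals of Robo2 and Slit3 are too narrow.

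Among barcodes without a label, Slit2, Slit3 and Ntn1 were highest in those with fibroblast markers. The barcodes were grouped by having at least 3 markers of 1 cell type and fewer of every other. No group took 19549 of the 22235 thymic barcodes (median 71.6% mitochondrial RNA) and 835 of the 3479 epigonadal ones (11.1%). Fibroblast-marker barcodes (63 thymic, 192 epigonadal) held 2101 CPM of Slit3 (thymic, 1808 to 2427) and 2318 CPM (epigonadal, 2141 to 2505), and their log2 ratio was -0.14 (-0.39 to 0.10). The same barcodes held 91.3 and 171 CPM of Slit2, 103 and 145 CPM of Ntn1, and 137 and 94.5 CPM of Robo1. Robo4 and Sema3g had no UMI in them in either library.

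Endothelial-marker barcodes without a label (326 thymic, 179 epigonadal) held the same vascular genes, at levels that in part differed from Ad IIa. Robo2 was at 103 and 9.17 CPM, against 149 and 38.8 CPM in Ad IIa, and Robo4 at 122 and 87.1 CPM, against 149 and 161 CPM. Unc5b stood at 59.6 and 55.0 CPM, Plxnd1 at 163 and 186 CPM and Sema3g at 65.8 and 84.1 CPM in the thymic and epigonadal library. In the comparison of the tissues Robo2 was the 1 member called, where 3.05% of 8684 genes were called higher and 7.62% lower. Of the 326 thymic barcodes 116 had just 3 markers, so the edge of that group is not sharp.

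Some members also appeared in other marker groups. Mural-marker barcodes, found in the epigonadal library only as a group of 19, held 1714 CPM of Slit3 (1139 to 2478, 28 UMIs). Thymic barcodes with T cell markers (1906) held 45 Ntn1 UMIs (33.8 CPM, 24.6 to 45.2), in 41 barcodes, and 153 Plxnd1 UMIs (115 CPM, 97.3 to 135). Plxnd1 is known from developing thymocytes, and macrophage-marker barcodes also held it, at 196 CPM in the thymic (4 UMIs) and 140 CPM in the epigonadal library (36 UMIs). In the epigonadal T cell marker barcodes (116) Ntn1 gave no UMI and Plxnd1 gave 3.

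**Figure D3:**
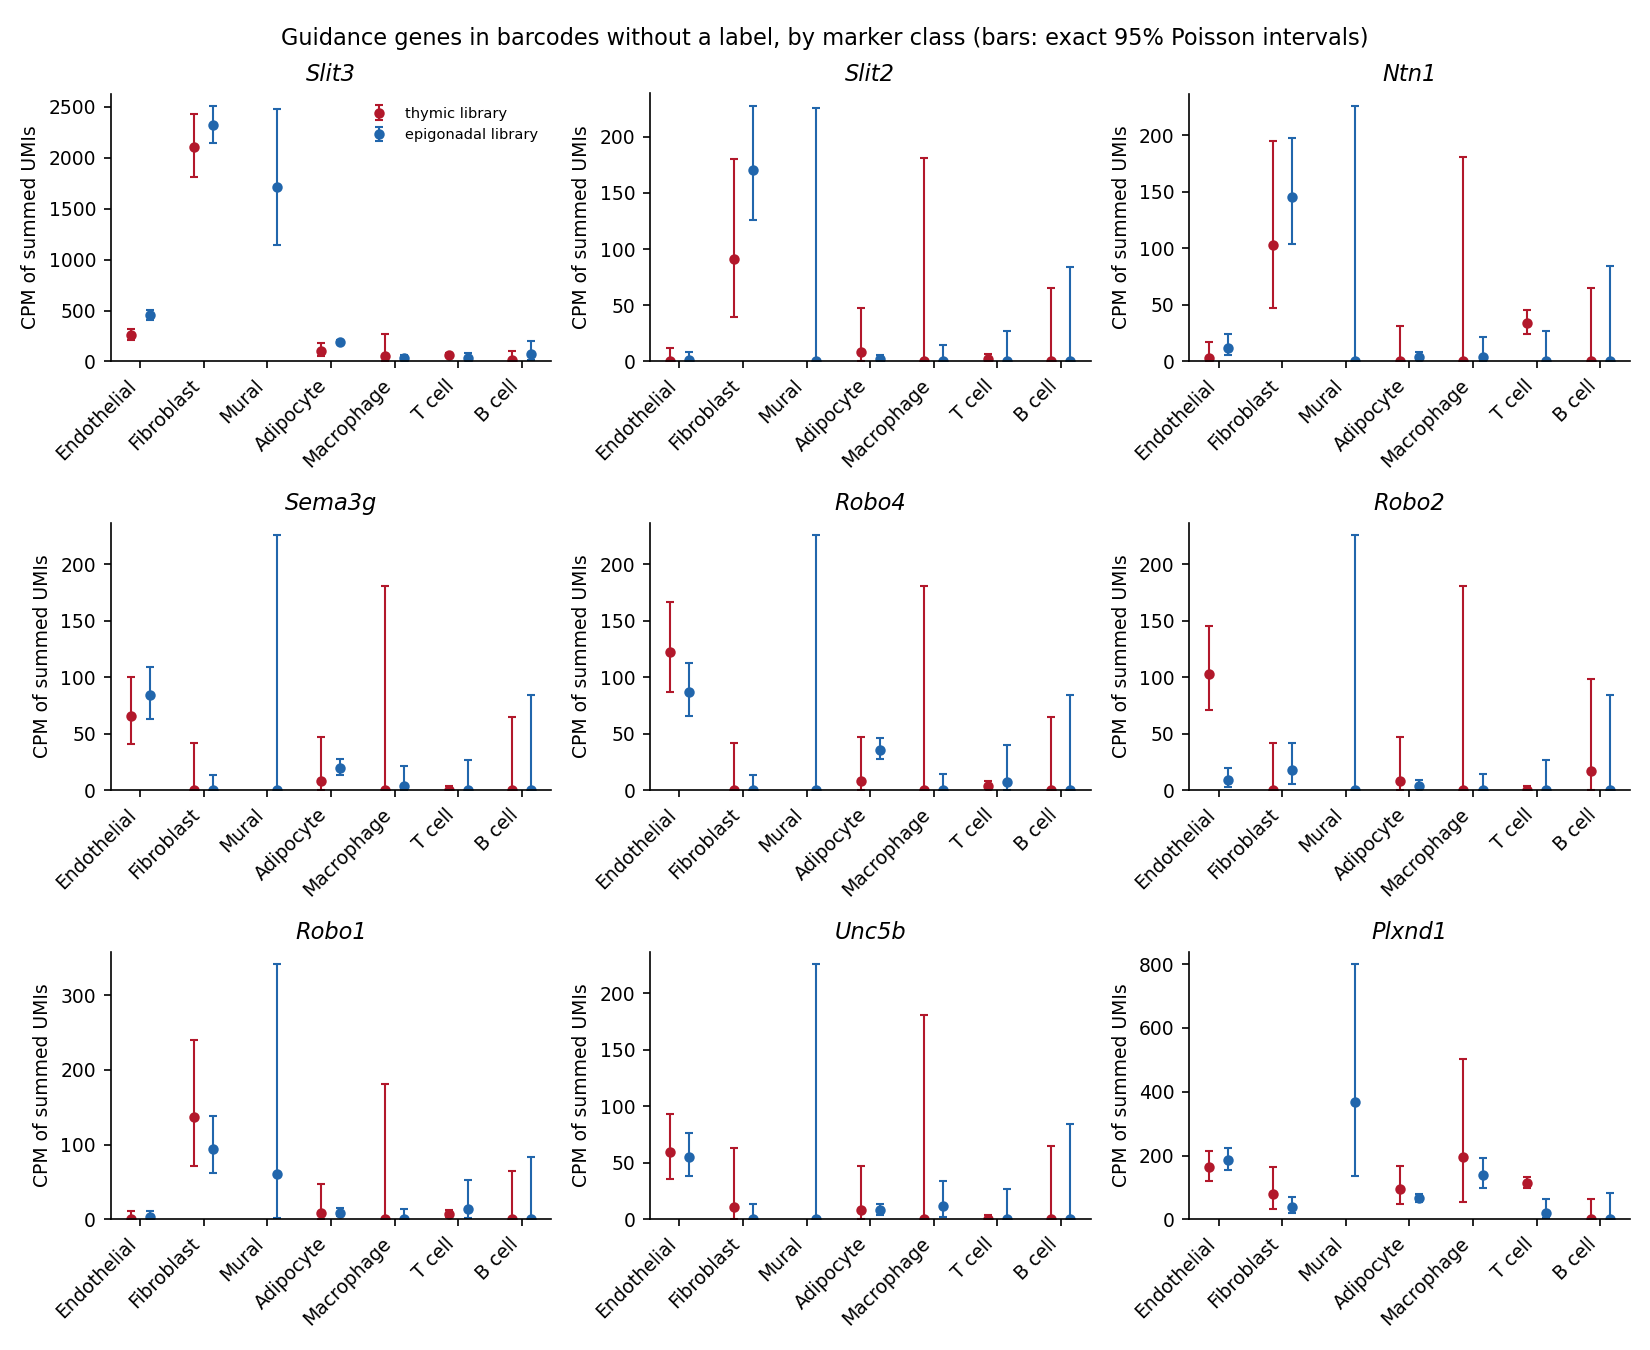
CPM of each gene (y axis, its own scale per panel) in barcodes without a label, grouped by cell type markers, in the thymic (red) and epigonadal (blue) library; bars are exact 95% Poisson intervals. Slit3, Slit2, Ntn1 and Robo1 were highest in fibroblast-marker barcodes, and Robo4, Robo2, Unc5b and Sema3g in endothelial-marker barcodes, apart from epigonadal Robo2, at 9.17 and 18.2 CPM in endothelial and fibroblast ones.

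The genes most like each member were found by Pearson correlation of log2(CPM + 10) over 12 sums, the 5 labels and the unlabelled barcodes of each library, among 9265 genes; the sums share libraries and depth, and r is a description. Robo2 was closest to Ephb1 (0.97), Colgalt2 (0.94) and Efna1 (0.94), and Robo4 to Eng (0.97), Tmem204 (0.97) and Pdgfb (0.97). Unc5b was closest to Gata2 (0.99), Mpzl1 (0.97) and Samd12 (0.97), Plxnd1 to Parp14 (0.97), Hmbox1 (0.97) and Arhgef3 (0.96), and Sema3g to Pik3r3 (0.95), Slc6a6 (0.95) and Pdgfd (0.94). Slit3 was closest to Mill2 (0.91), Frmd4b (0.89) and Tom1 (0.88). Eng, an endothelial co-receptor, was itself on the endothelial marker list. Robo1, Slit2 and Ntn1 had under 30 UMIs in labelled nuclei and were not placed.

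The wider guidance list held 89 genes in 5 families (Slit and Robo, netrin, class 3 semaphorins with their receptors, other semaphorins and plexins, ephrins), the 9 members included. The list was chosen with these data known, and the label split used the same UMIs. The minimum of 10 UMIs can also be met through the deeper Ad IIa alone, as in the 7 listed genes with 0 UMIs in thymic Ad I. The counts of Ad IIa over Ad I here and below are therefore descriptions. In the thymic library 23 of 37 listed genes with enough UMIs were called higher in Ad IIa than in Ad I and 3 lower (11.1% and 10.3% of all genes), with a median log2 ratio of 1.92 (1.38 with genes at 0 put at their limit) against 0.08 for all genes. Over the other settings that thymic median ran from 0.58, with 5 UMIs added to each sum, to 2.56. Added UMIs lower low-count ratios here, because Ad IIa is the deeper sum. In the epigonadal library 22 of 52 were called higher and 11 lower (12.4% and 13.2% of all genes), with a median of 0.72 against 0.07; with no minimum of UMIs the median of 80 listed genes was -0.31, the opposite direction. The highest thymic ratio with UMIs on both sides was that of Sema6a (4.31), a transmembrane semaphorin, and Efnb2, the arterial ephrin, had 155 UMIs against 0 and a log2 of at least 2.75. Enah, an actin regulator downstream of Robo (2.81, 134 against 2 UMIs), and Epha4, an ephrin receptor (2.75, 77 against 1), came next.

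Of the 37 listed genes measured in both libraries, 18 were called higher in Ad IIa in both, 2 were called lower in both, and none was called in opposite directions. Of the 6079 genes measured in both, 7.95% were called higher in both and 5.36% lower. The 2 lower genes were Efna5, an ephrin (-5.30 thymic, -4.77 epigonadal), and Mcam, a netrin-binding adhesion molecule (-2.94 and -2.07). Srgap1, a GTPase regulator that binds Robo, was called lower in the thymic library (-1.16) and stood at 0.57 (-0.07 to 1.33) in the epigonadal one. The highest epigonadal ratios were those of Ephb4, the venous ephrin receptor (2.98), Robo4, Sema6a (2.74) and Unc5b, and the lowest were those of Ephb2 (-6.53, 1 against 29 UMIs), Efna5, Sema5a (-4.10) and Dscam, which had 0 against 10 UMIs and was lower by a log2 of at least 3.97 (bound -3.97).

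**Figure D4:**
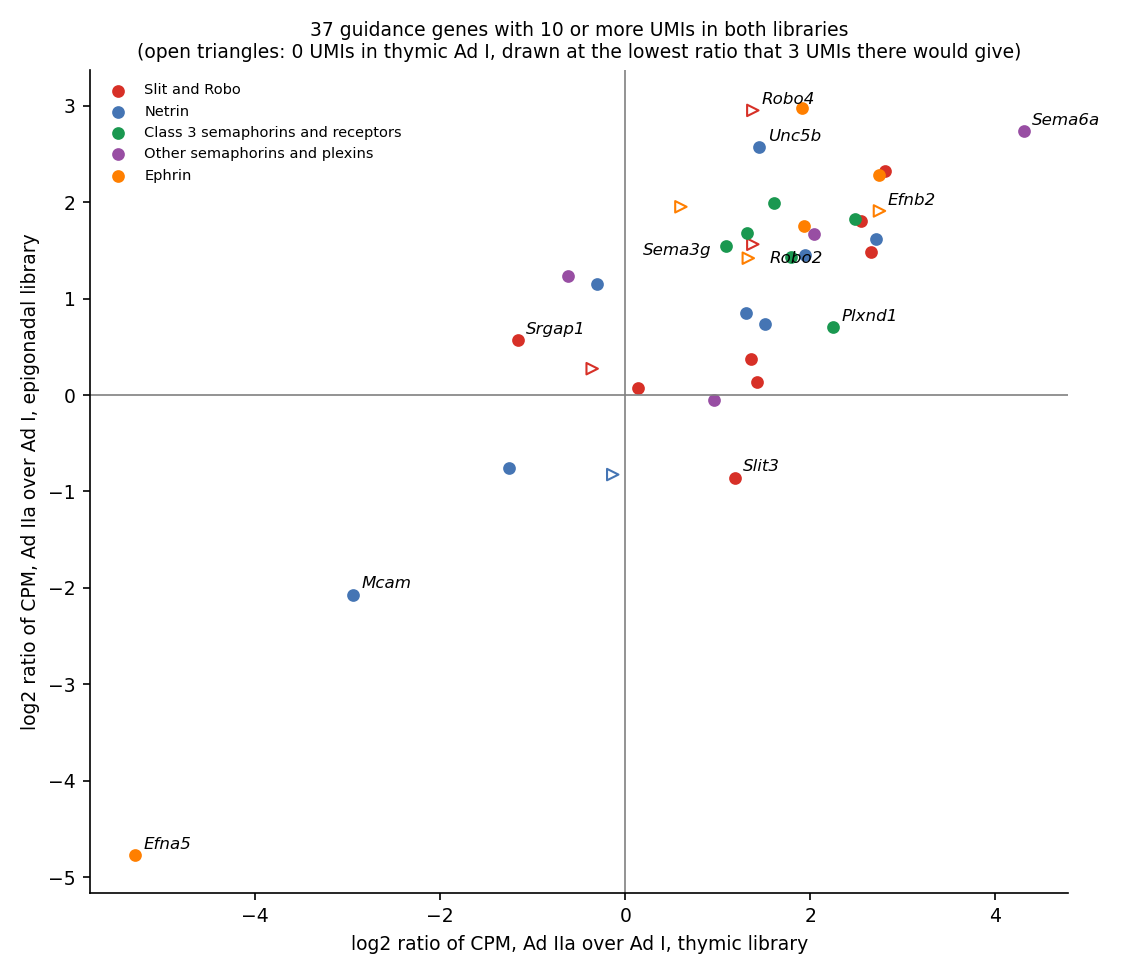
Log2 ratio of CPM, Ad IIa over Ad I, in the thymic (x axis) and epigonadal (y axis) library for the 37 listed genes with at least 10 UMIs in each; open triangles are the 7 genes with 0 UMIs in thymic Ad I, drawn at their limit. Most points lie in the upper right, Efna5 and Mcam in the lower left, and Slit3 in the lower right at 1.18 and -0.86.

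Between the tissues the median of the list lay near that of all genes in Ad IIa. Of 46 listed genes with enough UMIs 5 were called higher in the thymic library and 2 lower (3.0% and 9.03% of all genes), with a median log2 ratio of 0.10 against -0.02 for all genes. The 5 were Robo2, Ntng2, a membrane-bound netrin-G (1.56), Efnb2 (1.24), Epha4 (1.22) and Ephb1 (1.15, an ephrin receptor outside the naming rule, added to complete the count), and the 2 were Sema4c (-1.86) and Sema3f (-1.51). In unlabelled endothelial-marker barcodes 3 of 45 were called higher, Robo2, Ephb1 (1.58) and Ntng2 (1.04), and none lower (3.05% and 7.62% of all genes). In Ad I the median of 34 listed genes was -0.41 against 0.08, with Slit3 called lower and Srgap1 (1.43) higher. With 5 UMIs added to each sum that median was 0.64. The thymic sum is shallower (52241 against 263848 nuclear-encoded UMIs), so added UMIs raise low-count ratios and that setting cannot decide the direction.

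Accessibility was counted as ATAC fragments over each gene and 2 kb on either side, in nuclei labelled thyAD I (146 nuclei, 1646902 fragments), thyAD II (140, 2189613) and Immune (31, 561387). The nucleus table used here held 317 complete rows, and nuclei beyond them were not analysed here. Values are FPM, fragments per 1000000 fragments of the same label. Slit3 was at 321 FPM (294 to 349) in thyAD I, 406 (379 to 433) in thyAD II and 265 (225 to 312) in Immune nuclei. The log2 ratio of thyAD II over thyAD I for Slit3 was 0.34 (0.18 to 0.50), below the fold of 0.5 on the log2 scale used for a call.

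Ntn1 was the 1 member called between the thyAD labels, and it was lower in thyAD II. It was at 132 FPM (115 to 151) in thyAD I, 92.3 (80.0 to 106) in thyAD II and 160 (129 to 197) in Immune nuclei, a log2 ratio of -0.51 (-0.80 to -0.23). The call passed its limit narrowly. In the setting with windows of 1 kb around gene starts the ratio was -0.16 and not called. Ntn1 had no listed start and was counted there at both ends of the gene, so -0.16 is not a value at its start. Of all 27863 genes tested, 3.37% were called lower and 4.46% higher in thyAD II. Within thyAD I the authors' cluster 1 was at 147 and cluster 3 at 99.5 FPM, a log2 ratio of -0.55 (-1.04 to -0.10) for cluster 3 over cluster 1. Against cluster 1 thyAD II gave -0.67 (-0.97 to -0.36), and thyAD II over cluster 3 gave a log2 ratio of -0.12 (-0.56 to 0.36). The busiest 1 kb bin of Ntn1, chr11:68321364-68322363, held 37 fragments of thyAD I, 30 of them from cluster 1, against 21 of thyAD II.

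The receptors with high RNA in Ad IIa were not called between thyAD II and thyAD I in accessibility over the whole gene. Robo4 gave 7 fragments in each of the 3 labels, or 4.25, 3.20 and 12.5 FPM. Robo2 was at 140, 129 and 143 FPM in thyAD I, thyAD II and Immune nuclei, Unc5b at 88.7, 86.3 and 62.3, and Plxnd1 at 107, 93.2 and 134. The intervals of thyAD II over thyAD I included 0 for each of these 4 genes, and those of Robo1, Slit2 and Sema3g did too. In windows of 1 kb around gene starts the ratios were -0.88 for Slit2 (32 fragments of thyAD I and 23 of thyAD II) and -0.54 for Plxnd1 (58 and 53). Robo1 had too few fragments to read (1 and 3), around a listed start that lies inside the gene. The 1 kb bin at the Slit2 start, chr5:47982291-47983290, held 28 fragments of thyAD I and 19 of thyAD II, a log2 ratio of -0.96 (-1.89 to -0.08). Robo1, almost without RNA in the labelled nuclei, was at 132 FPM in cluster 3 and 77.4 in cluster 1, a log2 ratio of 0.77 (0.29 to 1.24). The chromatin nuclei and the RNA nuclei came from animals of different sex and age, and their labels are not shown to name the same cells. The gene expression library of the 6-month female nuclei was not analysed here.

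Per kb of the counted window, Plxnd1 was the most accessible member, at 2.41 FPM per kb in thyAD I and 2.09 in thyAD II, and Unc5b came next, at 1.21 and 1.18. Sema3g (0.774 and 0.998) lay around the median of all genes, which was 0.857 and 0.901, and Ntn1 (0.726 and 0.508) and Slit3 (0.542 and 0.686) lay below it. Robo4 (0.264 and 0.198), Slit2 (0.147 and 0.135), Robo1 (0.0925 and 0.0937) and Robo2 (0.0899 and 0.0829) lay far below it.

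At the 300-base promoter windows, Unc5b held 53 fragments of thyAD I and 59 of thyAD II, more than 95.2% of all windows. Plxnd1 held 35 and 34 (more than 86.4% of windows), and Slit2 held 25 and 18 (more than 77.5%), although its RNA was at or near 0 in the labelled nuclei of the RNA libraries. Slit3 held 7 and 12, Sema3g 3 and 4, and the printed Robo2 start 3 and 1. The Robo4 window shown above held 0 and 1, and the Robo1 window none; 37.6% of all windows held none. In Robo2 the bin with the most fragments was inside the gene, chr16:75344976-75345975, with 8 of thyAD I and 19 of thyAD II, a log2 ratio of 0.79 (-0.42 to 2.24). The next bin, chr16:74054976-74055975, went the other way, with 15 of thyAD I and 5 of thyAD II, a log2 ratio of -1.91 (-3.81 to -0.46).

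**Figure D5:**
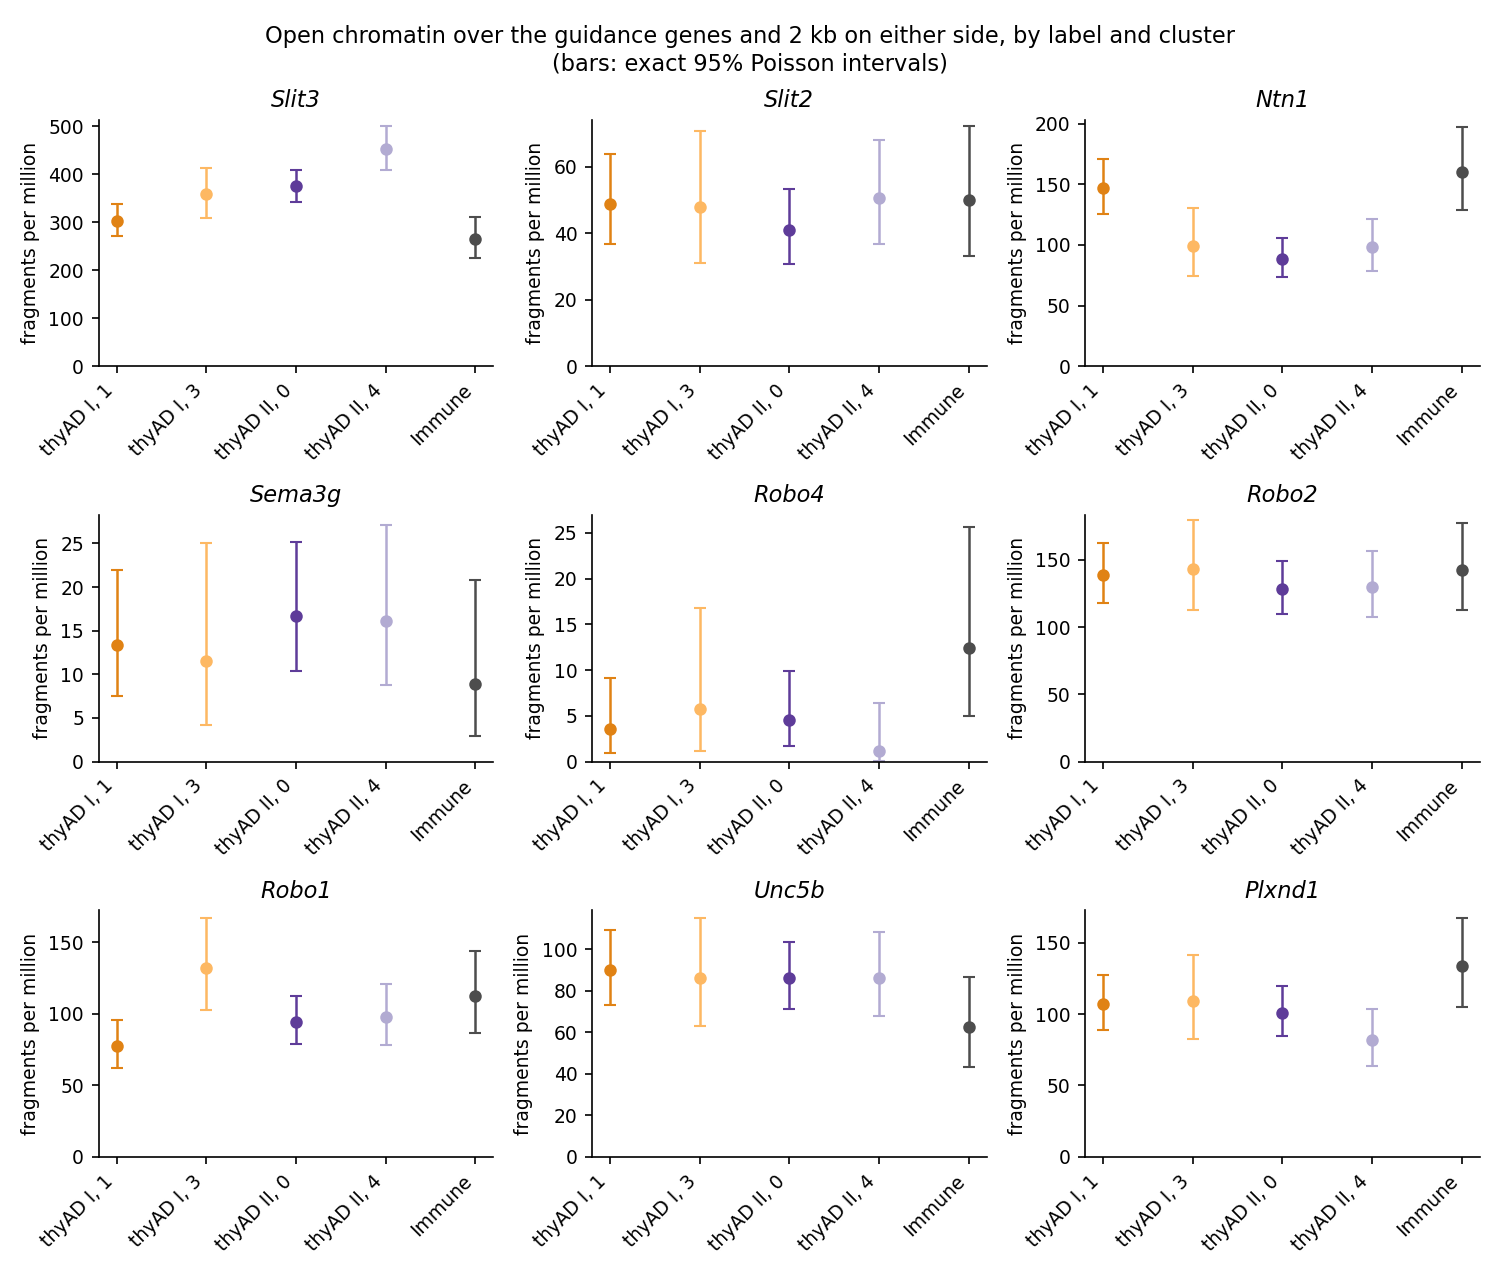
FPM over each gene and 2 kb on either side (y axis, its own scale per panel) in the authors' clusters 1 and 3 (thyAD I), 0 and 4 (thyAD II) and the Immune nuclei; bars are exact 95% Poisson intervals. Ntn1 was at 147 in cluster 1 and between 88.5 and 99.5 in the other thyAD clusters, Robo1 was at 132 in cluster 3 and 77.4 in cluster 1, and Robo2 and Unc5b differed little among the thyAD clusters.

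Over the whole guidance list the shares called in accessibility were near those of all genes. Of 89 genes 6 were called higher in thyAD II and 4 lower (4.46% and 3.37% of all genes), with a median log2 ratio of 0.09 against 0.02 for all genes. The highest were Epha2 (1.36), Ephb3 (1.04), Ntn4, a basement membrane netrin (0.90), and Plxnb2 (0.64), and the lowest were Ntng1 (-1.16), Epha3 (-0.72), Ntn1 and Dcc (-0.51), the axonal netrin receptor.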

How the data were processed

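Nuclei were processed on 10x Genomics kits. The authors deposited tables of UMI counts (Cell Ranger 7.2.0, per the file headers), labels and percent mitochondrial RNA per nucleus, and a table of ATAC fragments (Cell Ranger ARC 2.0.2, mm10, per the file headers); the submitters' processing notes also list Seurat 5.1.0. How doublets were treated upstream is not given in the sources used, and none were removed. Counts were summed over labels, divided by nuclear-encoded UMIs, and compared as log2 ratios with 0.5 UMI added, with exact Poisson, binomial and Clopper-Pearson intervals (scipy 1.17.1); edgeR 4.0.16 gave TMM factors for an alternative. A 0 was given an upper limit of 3 counts. With 1 library per group no test across samples was made. The called fold was 2 for RNA and a log2 of 0.5 for chromatin. Named genes were the 9 members and, per comparison, up to 4 highest and 4 lowest called list genes, and the 3 genes most like each member. Gene positions and promoters came from RefSeq (GRCm38.p6): 9 members had a position and 8 a promoter (not Ntn1). The members and lists were chosen with earlier results of these data known. Counting and calling were checked on simulated counts.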

Additional observations from a re-analysis of the deposited data

Results flagged for a closer look

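Slit3 differed in opposite directions between Ad IIa and Ad I in the 2 RNA libraries. The log2 ratio of Ad IIa over Ad I was 1.18 in the thymic library (113 against 6 UMIs) and -0.86 in the epigonadal library (547 against 211 UMIs). Each interval excluded 0, the thymic one narrowly, with a lower end of 0.13. Positive Ad IIa nuclei held on average 2.46 (thymic) and 2.66 (epigonadal) Slit3 UMIs. UMIs of 1 nucleus are not independent, so these intervals are too narrow. The thymic ratio was 0.97 (-0.18 to 2.76) without T cell marker nuclei. It was 0.48 with 5 UMIs added to each sum, which lowers low-count ratios because Ad IIa is the deeper sum. Whether the 6 UMIs of thymic Ad I are background was not tested. The difference between the libraries was not tested, because each is a single library.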

How the results depend on the processing

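No paired analysis was possible because each group is 1 library. The guidance list medians ran over the alternatives from 0.04 to 0.37 in Ad IIa between tissues, from -0.75 to 0.64 in Ad I between tissues, from 0.58 to 2.56 for thymic Ad IIa over Ad I, and from 0.06 to 0.10 in chromatin. The epigonadal median of Ad IIa over Ad I (0.72 over 52 genes) was 1.51 over 36 genes with at least 50 UMIs and -0.31 over 80 genes with no minimum of UMIs. The last value includes genes near 0 counts, whose ratio is set by the UMIs added to sums of unequal depth. The Ad I median (-0.41) was 0.64 with 5 UMIs added to each sum. The same setting took Robo2 and Robo4, thymic Ad IIa over Ad I, to 0.76. Added UMIs raise the level of the shallower sum most, which is thymic Ad I in both cases, so these moves follow in part from depth. Windows of 1 kb around gene starts moved 5 of 9 members' chromatin ratios out of their interval: Slit2 -0.88, Ntn1 -0.16, Plxnd1 -0.54, and, on few fragments, Robo1 0.81 and Robo2 -0.65. Ntn1 had no listed start and was counted at both ends of the gene, and the listed Robo1 start lies inside the gene. TMM scaling moved every ratio by -0.34 in Ad I between tissues, by 0.41 for thymic and 0.15 for epigonadal Ad IIa over Ad I, and by -0.06 in Ad IIa between tissues. Of the members' values 274 stayed in their interval and 44 did not, and none whose interval excluded 0 changed direction. The settings without fibroblast marker nuclei, without T cell marker nuclei and without shared barcodes, and the unlabelled endothelial-marker barcodes, were added after seeing the data. The limits are depth (thymic Ad I holds 52241 nuclear-encoded UMIs), pooled thymi and 1 library per group.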
